A study of Mus musculus with 4 samples.

Results

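The 10 genes described here encode 9 cathepsins (Ctsb, Ctsc, Ctsd, Ctse, Ctsh, Ctsk, Ctsl, Ctss and Ctsz) and cystatin C (Cst3), and were chosen by name from the 22869 gene symbols of the deposited tables. Each of the 10 symbols had a single RefSeq transcript among the 28644 transcripts, so no member rests on a choice between isoforms. The data are RNA sequencing counts and RPKM values (reads scaled to transcript length and library total) from primary pancreatic ductal cells of C57BL/6 mice, cultured and then exposed to 500 nM 4-hydroxytamoxifen for 4 days. The 2 control libraries came from HhexL/L littermates, which carry floxed alleles of the homeobox gene Hhex and no Cre. The 2 other libraries came from HhexL/L;Sox9CreERT2 mice, in which the drug activates a Cre recombinase under the Sox9 promoter, a gene active in ductal cells. Both groups therefore carried the floxed alleles and received the drug, and no group carried the Cre without floxed alleles, so an effect of the Cre cannot be told apart from one of Hhex loss. The comparison asks which transcripts of ductal cells depend on Hhex, in a study of spontaneous pancreatitis after Hhex deletion.

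Cathepsins are proteases that are made as inactive proenzymes, sorted to the lysosome largely by the mannose 6-phosphate receptors, and activated by cleavage at acid pH. Most are cysteine proteases of the papain family (cathepsins B, C, H, K, L, S and Z), while cathepsins D and E are aspartic proteases. Cystatin C is a secreted inhibitor that binds the active site cleft of cysteine cathepsins and does not inhibit the aspartic ones. In the exocrine pancreas cathepsin B is known to activate trypsinogen, cathepsin L to inactivate trypsinogen and trypsin by cleavage, and cathepsin D to activate cathepsin B, which places these enzymes in the early events of pancreatitis.

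Total counts per library were 25513289 and 25257778 in controls 1 and 2, and 39582625 and 30835777 in the others. The Hhex transcript was not lower in the Cre group, with 24.8 and 17.7 CPM (counts scaled to library size) in the controls against 23.6 and 39.0 CPM, a log2 fold change of 0.55 with an edgeR adjusted p of 0.742. Which exons are floxed is not given in the sources used here, so this count may not check the deletion. The libraries are called labelled knockout 1 and labelled knockout 2 for this reason. Labelled knockout 2 differed from the rest in sex, with Xist at 304 CPM and the Y-linked Ddx3y at 0.548 CPM, against at most 1.75 CPM and at least 108 CPM in the other 3 libraries. Of the ductal markers, the keratin genes Krt18, Krt8 and Krt7 had mean levels of 4076, 1632 and 543 RPKM, and acinar markers summed to no more than 4.19 RPKM over 16 genes in any library. In whole-culture RNA, fewer cells of a type and less RNA per cell cannot be told apart.

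The promoters of the 2 most abundant cathepsin genes hold the short core of an element known from lysosomal genes. TFEB, a transcription factor that switches on lysosomal genes, is known to bind sites built around the palindrome CACGTG, which reads alike on both strands. RefSeq promoter windows of assembly GRCm38.p6, which run from 250 bases before to 50 bases after a gene's start, were matched for 7 of the 10 genes (Cst3, Ctsc, Ctsd, Ctsk, Ctsl, Ctss and Ctsz). CACGTG was found in 2 of these 7, Ctsd and Ctsl, and in 7.15% of the 32851 promoter windows. The longer form TCACGTGA, which contains the shorter one, was found in Ctsd and in 0.974% of windows. A still longer palindrome, which contains both forms, was also searched. It was found in 0 of these 7 windows and in 0.326% of the 32851 promoter windows. Every CACGTG match in these 7 windows is shown, and a link between the element and level was not tested. No window was matched for Ctsb, Ctse and Ctsh. Capitals mark CACGTG in each stretch, written 5′ to 3′ along the gene's strand.
Ctsd, 98 bases before the start (chr7:142387910-142387935, minus strand): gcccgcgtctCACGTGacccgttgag
Ctsd, 245 bases before the start (chr7:142388057-142388077, minus strand): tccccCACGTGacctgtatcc
Ctsl, 236 bases before the start (chr13:64370741-64370766, minus strand): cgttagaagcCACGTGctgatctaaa
A match of letters is a description of the window and was not tested for binding. The coordinates belong to GRCm38.p6 and not to mm9, the build named for the deposited tables.

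Ctsd had the highest level of the 10 genes in every library. Compared per length, Ctsd stood at 744 and 1013 RPKM in controls 1 and 2 and at 1222 and 1005 RPKM in the labelled knockout pair, ranking between 11 and 15 among all gene symbols in each library. Ctsl followed at 382 and 455 RPKM in controls 1 and 2 and 537 and 288 RPKM in labelled knockout 1 and 2, ranking between 35 and 69. The ranges of Ctsd and Ctsl did not overlap over the 4 libraries, and neither did those of Ctsl and the next gene, Ctsz.

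A middle group of 4 genes lay between 56.9 and 135 RPKM. Ctsz, an exopeptidase also known as cathepsin X, had a mean of 117 RPKM, Cst3 of 103 RPKM, Ctsb of 91.6 RPKM and Ctsh, an aminopeptidase, of 68.0 RPKM. The ranges of neighbours in this order overlapped over the libraries. Ctsz lay above Cst3 in 3 of 4 libraries, with a 1.14-fold higher mean. Within a library the other neighbours kept their order, with Cst3 above Ctsb in 4 of 4 (1.12-fold by mean) and Ctsb above Ctsh in 4 of 4 (1.35-fold by mean). Ctse, an aspartic protease of endosomes best known from the stomach, averaged 21.6 RPKM, and Ctsc, the dipeptidyl peptidase that activates granule serine proteases of leukocytes, averaged 14.5 RPKM, with overlapping ranges.

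Ctsk and Ctss, genes of osteoclasts and of antigen-presenting cells, were at the detection limit in every library. Ctsk had 13 and 18 counts in the controls and 8 and 13 counts in labelled knockout 1 and 2. Ctss had 9 and 8 counts in the controls and 9 and 5 counts in the others. The highest level of either gene was 0.377 RPKM, and the gap in mean between Ctsc and Ctsk was 62.2-fold. The 2 genes lie side by side in the RefSeq gene order, and Arnt, on the other side of Ctsk and a broadly expressed transcription factor gene, stood at 12.4 to 15.3 CPM.

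**Figure D1:**
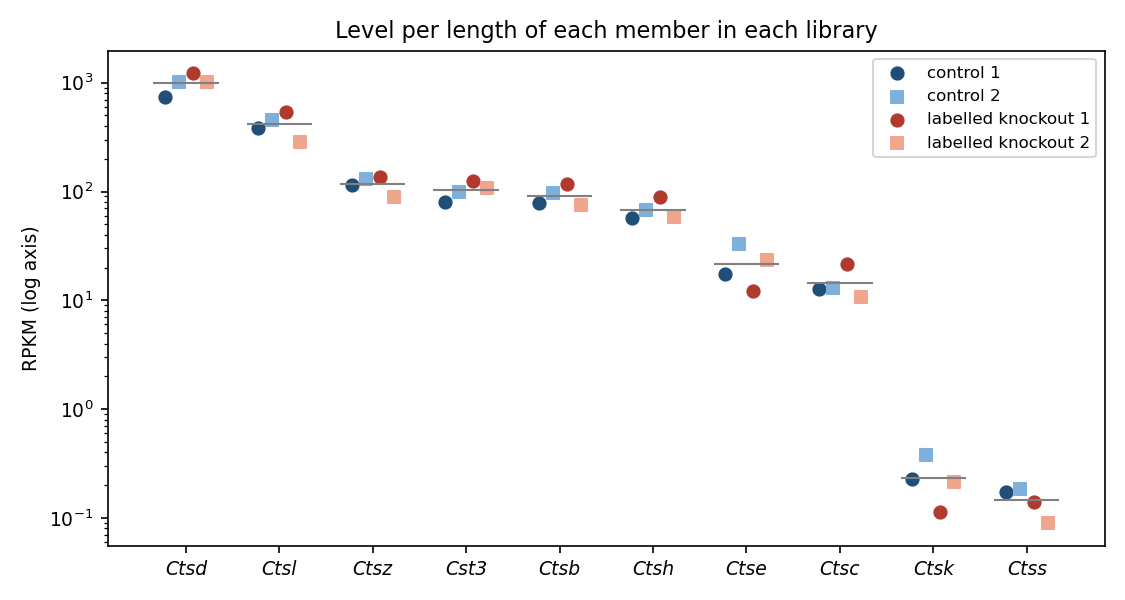
Deposited RPKM (log axis) of each of the 10 genes in each library, ordered by mean, with a grey line at the mean of the 4 libraries. Ctsd and Ctsl stand apart at the top, 6 genes lie between 10.7 and 135 RPKM, and Ctsk and Ctss lie at 0.377 RPKM or lower.

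No member passed the test between the labelled groups. Of the 9 members tested, edgeR's quasi-likelihood test called 0, with 0 also at an unadjusted p under 0.05. Across all transcripts 37 of 20949 were called, or 0.177%, with 27 (0.129%) higher and 10 (0.0477%) lower, and 7.47% had an unadjusted p under 0.05. DESeq2 also called 0 members (2.17% of all transcripts it tested), as did limma on log2(RPKM + 1) (0.907%), on log2(RPKM + 0.1) (1.05%) and on transcripts with an RPKM of at least 1 in 2 libraries (1.58%). In edgeR 0 members were called with library totals (0.0239% of all transcripts), upper-quartile factors (0.0239%), RLE factors (0.124%), no filter (0.28%), a CPM of at least 1 in 2 libraries (0.023%), 1 transcript per gene (0.0126%) or counts summed per symbol (0.031%). With 1 library left out, edgeR called 0 members without control 1 (0.0601%) or control 2 (0.139%), 1 without labelled knockout 1 (7.58%) and 2 without labelled knockout 2 (7.89%). The median log2 fold change was 0.062 over the 9 members and -0.0089 over all transcripts tested, and 5 of the 9 were positive. Ctss did not pass the filter on low counts and was not tested. Intervals below are 95% intervals of edgeR's fold change, and their width says what the design could have missed.

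Among the proteases that act on trypsinogen, Ctsb stood at 527 and 595 CPM in controls 1 and 2 and at 698 and 475 CPM in labelled knockout 1 and 2. The 2 libraries labelled knockout were thus the highest and the lowest of the 4. Its fold change was 1.04, with an interval of 0.722 to 1.51 (edgeR adjusted p = 0.982). In the RefSeq gene table the end of Ctsb overlaps Fdft1, a cholesterol synthesis gene, by 774 bases, and since the treatment of strand in counting is not given, reads there cannot be told apart. Fdft1 itself stood between 58.8 and 66.9 CPM.

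Ctsl showed the same arrangement more strongly, at 1062 and 1173 CPM in controls 1 and 2 against 1337 and 754 CPM. Labelled knockout 1 was the highest library and labelled knockout 2 the lowest, 1.77-fold apart, while the controls were within 1.10-fold. Its log2 fold change was -0.097 ± 0.28 (SE), with an edgeR adjusted p of 0.978. Without labelled knockout 1 the log2 fold change of Ctsl was -0.59 (edgeR adjusted p = 0.0244), and without labelled knockout 2 it was 0.24 (edgeR adjusted p = 0.611), each with a single library standing for the group.

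Ctsd stood at 2053 and 2588 CPM in controls 1 and 2 and at 3014 and 2610.0 CPM in labelled knockout 1 and 2. By CPM both labelled knockout values lay above both controls, the closest pair differing by little, whereas by RPKM the groups overlapped. The log2 fold change was 0.28 ± 0.22 (SE), a fold of 1.21 with an interval of 0.845 to 1.74 (edgeR adjusted p = 0.913).

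The other cysteine cathepsins of the middle and lower range again had their extremes in the 2 libraries labelled knockout. Ctsh stood at 130.4 and 144 CPM in controls 1 and 2 and 182 and 126 CPM in labelled knockout 1 and 2. Ctsz stood at 225 and 236 CPM against 237 and 167 CPM, so that labelled knockout 1 matched the controls and labelled knockout 2 lay below them. Ctsc had nearly equal controls, at 44.6 and 41.8 CPM, and values of 67.1 and 35.1 CPM in the others. The edgeR adjusted p values were 0.949 for Ctsh, 0.935 for Ctsz and 0.944 for Ctsc. For Ctsc the sign turned with the library left out, from a log2 fold change of 0.62 without labelled knockout 2 to -0.33 without labelled knockout 1. In each a single library stood for the group.

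Ctse ran the other way. It stood at 52.4 and 91.7 CPM in controls 1 and 2 and at 32.7 and 66.5 CPM in labelled knockout 1 and 2, so that labelled knockout 1 was the lowest library here. Its log2 fold change was -0.54 ± 0.37 (SE), the largest in size among the 8 members above 1 CPM, with a fold interval of 0.377 to 1.26 and an edgeR adjusted p of 0.872. The controls differed 1.75-fold and the libraries labelled knockout 2.04-fold. Without labelled knockout 2 the log2 fold change was -1.15, and without control 2 it was -0.047, each with a single library standing for the group. Other gastric-type genes were low, with Gata6, a transcription factor gene also used by pancreas, the highest at a mean of 2.72 RPKM, Muc6 at 0.444 RPKM and Muc5ac at 0.171 RPKM. Tff1 had no count in any library.

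Cystatin C had the smallest p of the group. Cst3 stood at 83.9 and 95.7 CPM in controls 1 and 2, 89.8 ± 8.35 CPM (SD, n = 2), and at 117 and 107 CPM in labelled knockout 1 and 2, with 112 ± 6.94 CPM (SD, n = 2). Both labelled knockout values lay above both controls, in CPM and in RPKM. The fold change was 1.25 with an interval of 0.973 to 1.60, a log2 fold change of 0.32 ± 0.15 (SE), and edgeR's adjusted p was 0.729 (unadjusted p = 0.0739). Leaving out each library in turn gave log2 fold changes of 0.23 to 0.46, and none of these fits called it.

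Of the tested members the CPM of the groups did not overlap for 3, Ctsd and Cst3 upward and Ctsk downward. Over all transcripts tested 36.1% had groups that did not overlap, 19.1% upward and 17% downward. The share among members, 3 of 9, was near that background. By RPKM the groups did not overlap for 2 of the 9, Cst3 upward and Ctsk downward, against 32.6% of all transcripts, 21.4% upward and 11.3% downward. For Ctsk the counting error alone was wide: its 0.474 and 0.730 CPM in controls 1 and 2 carried exact Poisson intervals of 0.252 to 0.810 and 0.433 to 1.15 CPM, and its 0.214 and 0.419 CPM in the others intervals of 0.0925 to 0.422 and 0.223 to 0.717 CPM. These cover counting error only. Its log2 fold change was -0.92 ± 0.80 (SE), with an edgeR adjusted p of 0.922.

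**Figure D2:**
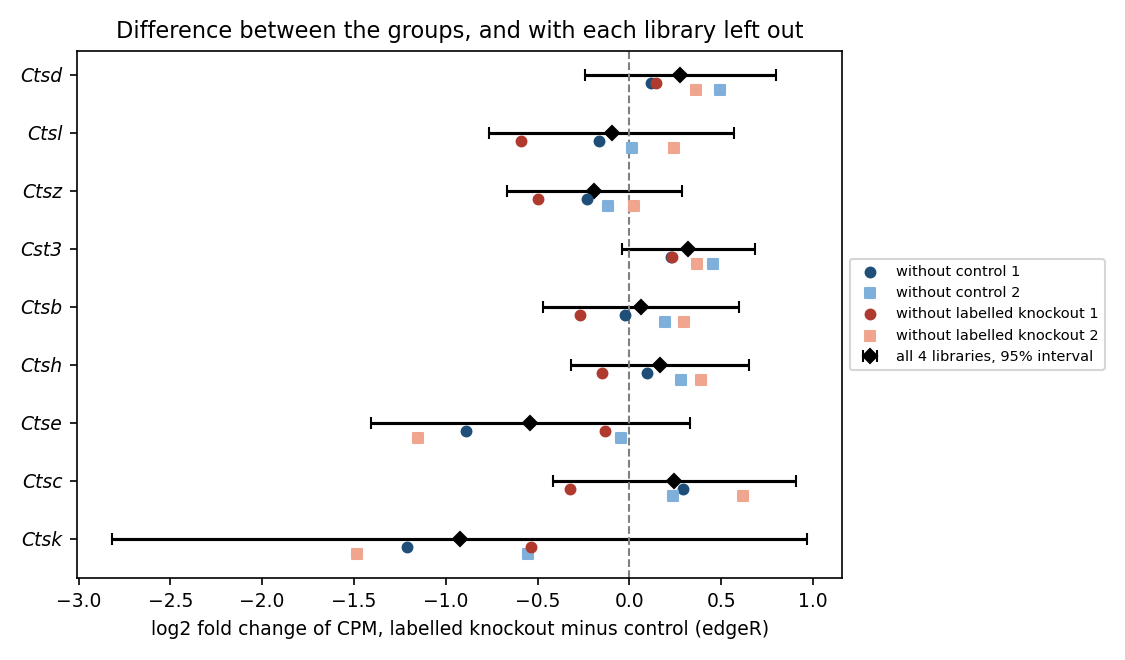
Log2 fold change of CPM (labelled knockout minus control, edgeR) for the 9 tested members, with 95% intervals as bars, and the value with each library left out as coloured points. Every interval includes 0, and for Ctsb, Ctsc, Ctsh, Ctsl and Ctsz the point without labelled knockout 1 and the point without labelled knockout 2 lie on opposite sides of 0.

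For 7 of the 9 tested members the 2 libraries labelled knockout lay further apart than the 2 controls, and for Ctsd and Cst3 the controls did. On the log2 scale Ctsd differed by 0.21 between the labelled knockout libraries and by -0.33 between the controls (replicate 1 minus 2), and Cst3 by 0.13 and -0.19. Labelled knockout 1 had the highest CPM for 7 of the 10 members (Ctsb, Ctsc, Ctsd, Ctsh, Ctsl, Ctsz and Cst3), and labelled knockout 2 the lowest for 6 (Ctsb, Ctsc, Ctsh, Ctsl, Ctsz and Ctss). The shares of all transcripts with these extremes are not given here. The median absolute log2 difference between the libraries labelled knockout was 0.56 over the 9 tested members, against 0.28 over all transcripts tested. Between the controls it was 0.18 over the members and 0.21 over all transcripts. Control 1 was the higher control for 1 of the 9 tested members, Ctsc, and for 42.9% of all transcripts tested. Across all transcripts tested, the libraries did not pair by group. Differences in log2 CPM had an SD over transcripts of 0.581 for the control pair and 0.668 for the labelled knockout pair. Across groups this SD was 0.516 between control 2 and labelled knockout 1, 0.551 between control 1 and labelled knockout 2, 0.629 between control 2 and labelled knockout 2, and 0.732 between control 1 and labelled knockout 1. These are descriptions of 4 libraries, and the sex of labelled knockout 2, which sets it apart from labelled knockout 1, was not tested as a source of the difference.

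Other lysosomal genes leaned the same way between these 2 libraries, by smaller amounts. Of 28 lysosomal hydrolase genes, 23 were higher in labelled knockout 1 than in labelled knockout 2, with a median log2 difference of 0.18, while 4 of the 28 were higher in control 1 than in control 2. Of 16 genes of the lysosomal membrane and proton pump 12 were higher, with a median of 0.11, and of 16 genes of cathepsin maturation and sorting 11 were higher, with a median of 0.13. For 19 regulators of lysosomes and autophagy the count was 10 and the median 0.030. Over all transcripts tested 48.8% were higher in labelled knockout 1 and the median was -0.011, and 42.9% were higher in control 1 than in control 2. Cd68, which encodes a lysosomal membrane glycoprotein used as a macrophage marker, was likewise higher in labelled knockout 1, at 7.36 and 10.8 CPM in controls 1 and 2, 16.2 CPM in labelled knockout 1 and 3.94 CPM in labelled knockout 2.

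Macrophages, which are rich in cathepsins, were measured by their own markers. Of 17 macrophage and myeloid genes in the tables, edgeR tested 12 and called 0, with 0 at an unadjusted p under 0.05. Their sum was 170 and 151 CPM in controls 1 and 2 and 129 and 217 CPM in labelled knockout 1 and 2, so that in the latter pair the order was the reverse of that of Ctsb, Ctsc, Ctsd, Ctsh, Ctsl and Ctsz and the same as that of Ctse and Ctsk. Most of the sum was Cd14, a receptor for lipopolysaccharide, at 151 and 135 CPM in controls 1 and 2 and 108 and 205 CPM in the others. The defining leukocyte gene Ptprc stood at 0.802, 0.405, 0.295 and 0.516 CPM in the same order, and C1qa had no count in labelled knockout 1. Only 1 of the 12 tested markers, Cd68, was higher in labelled knockout 1 than in labelled knockout 2. Between the groups, 9 of the 12 had negative and 3 positive fold changes, with a median log2 fold change of -0.47.

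**Figure D3:**
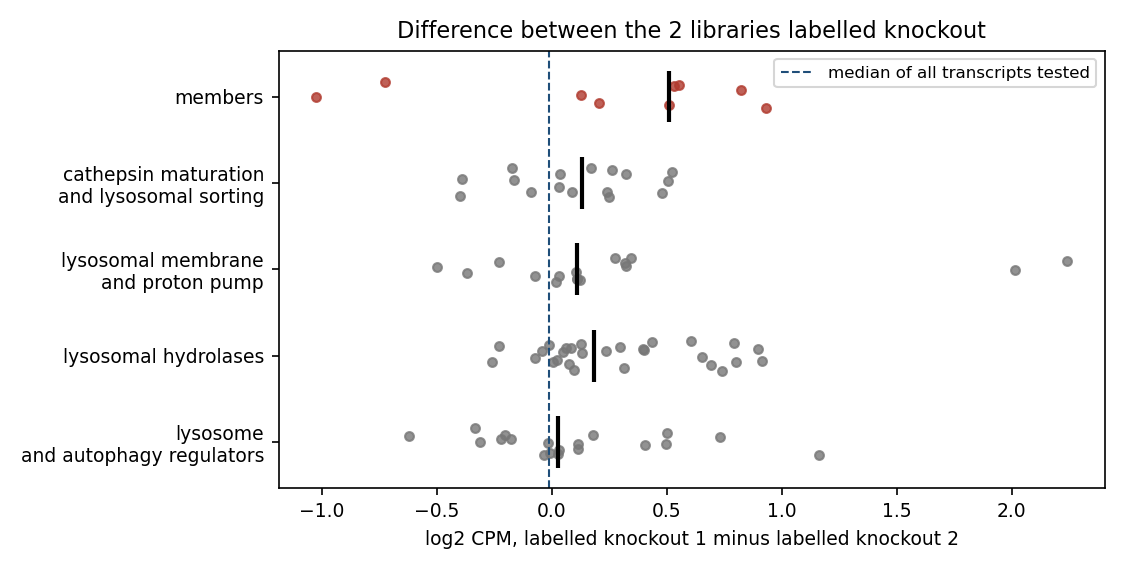
Log2 difference in CPM (with 0.1 CPM added) between labelled knockout 1 and labelled knockout 2 for each tested gene of the 9 members and of 4 lysosomal lists, with black bars at each list's median and a dashed line at the median of all transcripts tested. The median of the members is 0.51, those of the 4 lists lie between 0.030 and 0.18, and the 2 members at the left are Ctse and Ctsk.

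Ratios within a library do not depend on how libraries are scaled, and they set protease messages against inhibitor. The 7 cysteine cathepsins together stood at 8.05 and 7.73 times the RPKM of Cst3 for the control libraries, and at 7.20 and 4.81 times in labelled knockout 1 and 2. Both labelled knockout values were lower, with labelled knockout 1 close to the controls and labelled knockout 2 well below. Ctsl, which made up most of that sum, stood at 4.77 and 4.62 times Cst3 for the control libraries and at 4.30 and 2.65 times in the others.

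Of the 3 ratios among the proteases tied to trypsinogen, the groups overlapped in 1. The ratio of Ctsl to Ctsb was 4.85 and 4.74 for the control libraries, and 4.61 and 3.82 in labelled knockout 1 and 2. The ratio of Ctsd to Ctsl was 1.95 and 2.23 for the control libraries, and 2.27 and 3.49 in the others. The ratio of Ctsd to Ctsb was 9.45 and 10.6 for the control libraries, and 10.5 and 13.3 in the others, so that labelled knockout 1 lay between the controls. The other 4 ratios given so far, whose groups did not overlap, all contain Ctsl and are not separate observations, and by RPKM alone 32.6% of single transcripts had groups that did not overlap. An exact two-sided permutation test of 2 against 2 libraries cannot go below p = 0.333.

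**Figure D4:**
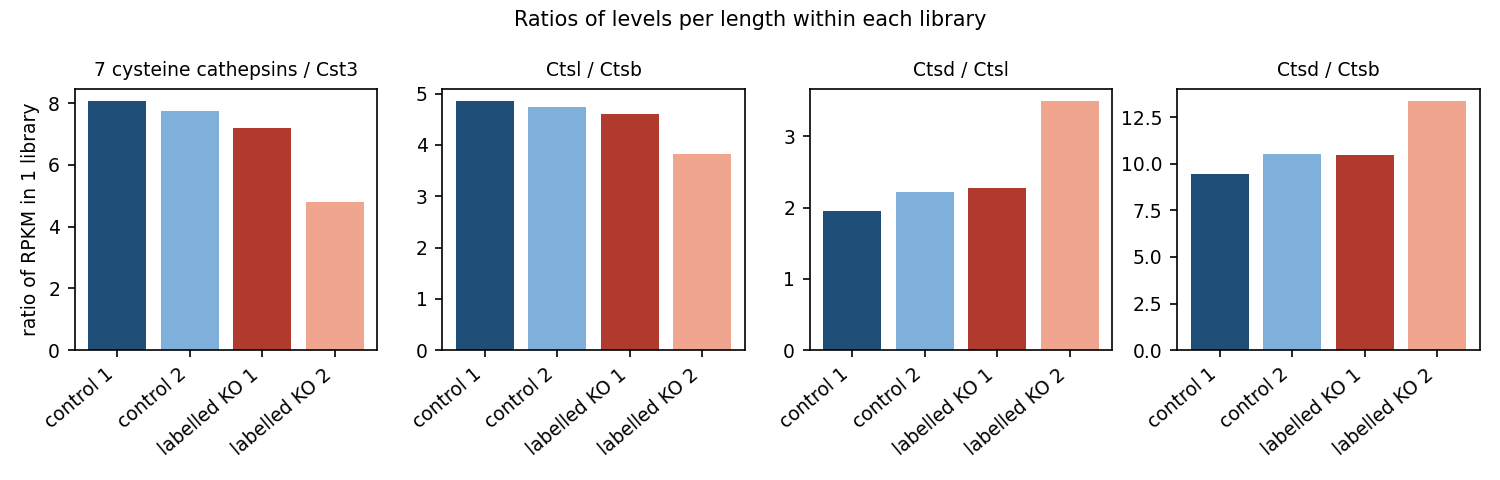
Ratios of RPKM within each library, as bars from 0: the sum of the 7 cysteine cathepsins over Cst3, Ctsl over Ctsb, Ctsd over Ctsl, and Ctsd over Ctsb. The first 3 libraries lie between 7.20 and 8.05, 4.61 and 4.85, 1.95 and 2.27, and 9.45 and 10.6, and labelled knockout 2 is at 4.81, 3.82, 3.49 and 13.3.

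Most genes in the rest of the cathepsin family did not pass the filter on low counts. Of 14 further cathepsin genes edgeR tested 5 and called 0, with 2 at an unadjusted p under 0.05. Ctsa, a serine carboxypeptidase that protects lysosomal glycosidases, was the most abundant of them at a mean of 21.4 RPKM, with 101 to 112 CPM in the 4 libraries (edgeR adjusted p = 0.969). In the RefSeq gene table Ctsa overlaps Neurl2 and Pltp, by up to 1515 bases, and reads there cannot be told apart. Ctsf stood at 16.03 and 16.06 CPM in controls 1 and 2 and 19.5 and 19.4 CPM in the labelled knockout pair (edgeR adjusted p = 0.792).

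Ctso stood at 13.5 and 13.1 CPM in controls 1 and 2 and at 21.2 and 16.4 CPM in labelled knockout 1 and 2, without passing the test (edgeR adjusted p = 0.592). Ctsw, a cathepsin of cytotoxic lymphocytes, had the largest log2 fold change of the tested family members, -1.23 ± 0.32 (SE), with 8.20 and 4.83 CPM in controls 1 and 2 and 2.65 and 2.90 CPM in the others (edgeR adjusted p = 0.329). Its gene overlaps the end of Fibp by 10 bases in the RefSeq table, and Fibp stood at 27.1 to 35.4 CPM. T and natural killer cell genes summed to 5.76 and 3.45 CPM in controls 1 and 2 and 1.90 and 4.29 CPM in the others, with 5 of 12 tested and 5 of 5 fold changes negative, and their part in the Ctsw values was not tested. The remaining 9 genes, 8 of them of the placental cathepsin cluster and the other the neutrophil gene Ctsg, did not pass the filter, and Ctsq, a placental cathepsin that did, lay at 0.487 CPM or lower.

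Among other inhibitors, cystatin B was as abundant as cystatin C. Cstb, the intracellular stefin, stood at 95.8 and 110.4 RPKM in controls 1 and 2 and 133 and 112 RPKM in labelled knockout 1 and 2, or 1.03 to 1.20 times Cst3 in the same library. Its log2 fold change of CPM was 0.18 ± 0.15 (SE), with an edgeR adjusted p of 0.917. Among 20 other cystatin-family genes present, edgeR tested 4 and called 0, with 0 at an unadjusted p under 0.05. Cst6, the secreted cystatin E/M, stood at 1.24 and 1.30 CPM in controls 1 and 2, 3.78 CPM in labelled knockout 1 and 1.32 CPM in labelled knockout 2 (edgeR adjusted p = 0.785). Fetub and Kng2, liver-made members of the superfamily, lay below 1 CPM in every library.

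Serpins listed here as able to inhibit cathepsins were higher in labelled knockout 2 than in labelled knockout 1 for all 5 tested. Whether any of them acts on the cathepsins described above was not tested. Serpinb6b stood at 716 and 828 CPM in controls 1 and 2 and at 714 and 1668 CPM in labelled knockout 1 and 2, and Serpinb9 at 265 and 323 CPM against 196 and 579 CPM. Serpinb6a stood at 447 and 594 CPM against 540 and 595 CPM. None passed edgeR or had an unadjusted p under 0.05, and the lowest adjusted p of these 5 was 0.819. All 5 fold changes between the groups were positive, with a median log2 fold change of 0.40. Serpinb6a and Serpinb6b are close paralogs, so the split of reads between them is uncertain.

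The machinery that matures and delivers cathepsins did not pass the test either. Of 16 genes edgeR called 0, with 2 at an unadjusted p under 0.05, 8 fold changes positive and 8 negative, and a median log2 fold change of -0.024. Sort1, the sorting receptor sortilin, stood at 66.6 and 67.3 CPM in controls 1 and 2 and 98.0 and 87.1 CPM in the labelled knockout pair, with an edgeR adjusted p of 0.456. Grn, which encodes the lysosomal chaperone progranulin, stood at 44.2 and 43.5 CPM against 35.7 and 33.5 CPM (edgeR adjusted p = 0.622). Psap, the saposin precursor, was the most abundant at a mean of 143 RPKM. Gga2 and Gga3, adaptors of mannose 6-phosphate receptor traffic, had edgeR adjusted p values of 0.766 and 0.766. Lgmn, the asparaginyl endopeptidase that trims cathepsins to their 2-chain forms, was chosen after its values were seen and stood at 75.8 and 78.8 CPM against 114.6 and 80.7 CPM (edgeR adjusted p = 0.801).

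Lysosomal hydrolases had fold changes in both directions and no call. Of 28 tested edgeR called 0, with 4 at an unadjusted p under 0.05, 13 positive and 15 negative, and a median log2 fold change of -0.0091. Smpd1, the acid sphingomyelinase gene, stood at 26.7 and 30.4 CPM in controls 1 and 2 and 48.1 and 40.8 CPM in the others (edgeR adjusted p = 0.296). Ids, the iduronate sulfatase gene, had a log2 fold change of 0.55 (edgeR adjusted p = 0.496). Neu1, the sialidase held in a complex by Ctsa, stood at 112 and 117 CPM against 87.0 and 65.9 CPM (edgeR adjusted p = 0.443), and Dpp7, a dipeptidyl peptidase, at 49.6 and 63.1 CPM against 43.1 and 26.7 CPM (edgeR adjusted p = 0.531). Asah1, the acid ceramidase gene, was the most abundant at 134 RPKM.

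For the lysosomal membrane and proton pump edgeR tested 16 genes and called 0, with 1 at an unadjusted p under 0.05. That gene was Cd63, a tetraspanin, with a log2 fold change of -0.50 (edgeR adjusted p = 0.599). Lamp1, the major membrane glycoprotein, led the list at 225 RPKM and was even across libraries, at 640 and 671 CPM in controls 1 and 2 and 692 and 682 CPM in the others. The pump subunit genes Atp6v0a1, Atp6v1b2 and Atp6v0d1 had log2 fold changes of 0.27, 0.20 and 0.24, none of which passed the test.

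Regulators of lysosomes and autophagy included the gene with the largest fold change of these lysosomal lists. Lrrk2, a kinase recruited to stressed lysosomes, stood at 5.32 and 4.70 CPM in controls 1 and 2 and 10.04 and 15.5 CPM in the labelled knockout pair, a log2 fold change of 1.35 ± 0.26 (SE) that missed the threshold (edgeR adjusted p = 0.182). Rragd, a GTPase gene that TFEB is known to switch on, stood at 63.6 and 74.4 CPM against 157 and 69.9 CPM, high in labelled knockout 1 only. Gabarapl1 and Wipi1, autophagosome genes, had log2 fold changes of 0.46 and 0.28. Of 19 tested edgeR called 0, with 2 at an unadjusted p under 0.05, 13 positive and 6 negative. Sqstm1, the autophagy receptor gene, led at 156 RPKM and had a log2 fold change of 0.046.

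The substrate of the pancreatitis cascade was nearly absent from these cultures. None of the trypsinogen genes Prss1, Prss2, Prss3, Try4, Try5 and Try10 had more than 7 counts in any library. Of the 11 genes listed around trypsinogen and its inhibitors, only Ctrb1, a chymotrypsinogen gene, and F2rl1 were tested. Neither was called by edgeR or had an unadjusted p under 0.05. No trypsinogen or trypsin inhibitor gene of the list was therefore tested. F2rl1, which encodes the trypsin-activated receptor PAR2, stood at 125 and 120.1 CPM in controls 1 and 2 and 105 and 164 CPM in labelled knockout 1 and 2 (edgeR adjusted p = 0.964). Amy2a5, a pancreatic amylase gene, had no count in any library.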

How the data were processed

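RNA sequencing libraries of 2 control and 2 labelled knockout cultures were compared. The members and gene lists were chosen with earlier results of these data known. The deposited counts are whole numbers per RefSeq transcript, not normalized. The authors also deposited RPKM, which divides each count by the transcript's length and by a library total. Genome mm9 and edgeR are named in the submitters' processing notes, while aligner, counter and strand are not given in the sources used here. Where nothing says that libraries came from separate cultures, p-values measure only the spread between these libraries.

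Counts were tested in R 4.3.3 with edgeR 4.0.16: filterByExpr (minimum count 10, minimum total 15), TMM factors, the quasi-likelihood F test, and Benjamini-Hochberg adjustment over the 20949 transcripts tested, with a threshold of 0.05. CPM uses TMM-scaled totals, so it can order libraries differently from RPKM. SE is the log2 fold change over the root of F. The common coefficient of variation was 0.234. Alternatives were other scaling, filters, DESeq2 1.42.0, limma 3.58.1 on log2(RPKM + 1) and log2(RPKM + 0.1), and each library left out. Genes to be named were all members and all tested cathepsins and cystatins. From other lists they were the 4 smallest p and the most abundant, and from markers the 3 most abundant and those without counts. This rule was not followed throughout: not every serpin, fibroblast or endothelial gene it covers is named.

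Macrophage, fibroblast, acinar, gastric-type, lymphocyte, neutrophil and mast cell, endothelial and ductal markers were listed as checks. Fibroblast and stellate genes summed to 43.3 and 44.9 CPM in controls 1 and 2 and 51.2 and 62.8 CPM in the others. Of the 12 fibroblast and stellate genes tested, 10 had negative and 2 positive fold changes, with a median log2 fold change of -0.67. The 2 with an unadjusted edgeR p under 0.05 went opposite ways. Sparc had a log2 fold change of -1.64 (edgeR adjusted p = 0.0609) and Vim of 1.43 (edgeR adjusted p = 0.133). In the same order of libraries, neutrophil and mast cell genes summed to 96.1, 71.9, 54.0 and 79.1 CPM, mostly Ltf. Endothelial genes summed to 27.3, 20.3, 13.8 and 16.5 CPM. Of the ductal genes tested edgeR called 1, Tm4sf4, downward, and of the genes of the other marker lists 0.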

Additional observations from a re-analysis of the deposited data

How the results depend on the processing

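No member was called in any of the 11 alternatives that kept all 4 libraries, and 8 members had values in all 11, of which Ctsb changed direction, from a log2 fold change of 0.062 to -0.018 with library totals. Ctsk had values in 9, being absent under the CPM and RPKM minimums of 1, and its -0.92 became -0.16 on log2(RPKM + 1) and -0.61 on log2(RPKM + 0.1). The count of 37 called transcripts changed more: it was 5 with library totals, 5 with upper-quartile factors, 79 without a filter, 4 with a CPM of at least 1 in 2 libraries, 366 with DESeq2, 2 with 1 transcript per gene and 5 with counts summed per symbol. With limma it was 190 on log2(RPKM + 1), 221 on log2(RPKM + 0.1) and 235 on log2(RPKM + 1) with an RPKM of at least 1 in 2 libraries. The cause was not tested. With each library left out, so that 1 library stands for a group and is assumed to vary like the other, the count ran from 13 without control 1 to 1735 without labelled knockout 2, and 0 to 2 members were called: Ctsl without labelled knockout 1, and Ctsc and Ctse without labelled knockout 2. Log2 fold changes then ran from -0.27 to 0.30 for Ctsb, -0.33 to 0.62 for Ctsc, -0.15 to 0.39 for Ctsh, -0.59 to 0.24 for Ctsl and -0.50 to 0.026 for Ctsz. Ctsd (0.12 to 0.49), Cst3 (0.23 to 0.46), Ctse (-1.15 to -0.047) and Ctsk (-1.48 to -0.54) kept their sign. No paired analysis was possible because the sample numbers in the titles run on from one group to the next. Depth limits only Ctsk and Ctss.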
